A study of Mus musculus with 8 samples.

Results

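The mitotic G2/M genes are 44 protein-coding genes whose products carry a cell from the end of DNA synthesis through chromosome segregation and cytokinesis. They were taken as a list of names and matched to the gene symbols of the count table, where all 44 were found once among 55536 genes, and all 44 had enough counts to be tested. They were measured in alphaTC6 cells, a mouse line of pancreatic alpha cells, the cells that make glucagon, labelled as wild type, 48 h after reverse transfection with RNAiMax Lipofectamine. Poly(A) RNA came from 4 libraries treated with siScramble as the control and 4 treated with a pool of siRNAs against Klf4, a zinc finger transcription factor. Batch 1 held scramble replicates 1 and 2 and Klf4 siRNA replicates 1, 2 and 4, and batch 2 held scramble replicates 3 and 4 and Klf4 siRNA replicate 3. All groups are thus a single proliferating line in culture, and both treatments went through the transfection. The replicates are called biological, but whether they were separate cultures is not said, and p-values then measure the spread between these libraries, which may be technical. The comparison asks which genes depend on Klf4 in cultured alpha cells.

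Totals ran from 45954151 to 64185987 counts per library. Klf4 RNA had 39.2, 35.1, 46.3 and 46.8 CPM (counts scaled to the library size with TMM factors) in scramble replicates 1 to 4 and 12.5, 11.5, 19.8 and 18.8 CPM in Klf4 siRNA replicates 1 to 4, so every Klf4 siRNA library lay below every scramble library. Its log2 fold change was -1.33 ± 0.17 (SE; edgeR adjusted p = 0.0083), which became an edgeR adjusted p of 0.052 with scramble replicate 1 left out and of 0.104 in batch 1 alone. All 10 alpha cell markers examined were expressed. Gcg, the glucagon gene, had 1065 to 1257 CPM in the 5 libraries of batch 1 and 7640 to 8913 CPM in the 3 of batch 2. By Gcg, Klf4 siRNA replicate 4 thus lay with the batch its label gives, and other alpha cell markers were mixed. For Chgb it had 278 CPM, against 266 to 314 CPM in the other batch 1 libraries and 419 to 489 CPM in batch 2. For Ttr it lay between the batches (495 CPM, against 388 to 436 and 618 to 639 CPM). For Slc38a5 it lay in the range of batch 2 (730 CPM, against 616 to 683 and 698 to 746 CPM). Of 24 markers of other cell types (beta, delta, PP, exocrine, fibroblast, endothelial and immune), 6 had 0 counts in every library, among them Ins1, Ins2 and Pdx1. Another 5 passed the filter on low counts. They were the beta cell marker Mafa at 2.70 to 3.76 CPM, the immune markers Cd68 (1.54 to 2.50 CPM) and Lyz2 (0.284 to 0.656 CPM), the endothelial marker Pecam1 (0.234 to 0.359 CPM) and Col1a2. Of these, Col1a2, a collagen gene, was at 11.8 to 21.7 CPM (log2 fold change 0.21, edgeR adjusted p = 0.650), while the other fibroblast markers Col1a1, Dcn and Lum did not pass the filter and had at most 10, 8 and 1 counts in a library.

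In cycling cells, cyclin A2 and the B-type cyclins activate the kinase Cdk1, which the Cdc25 phosphatases switch on and which starts mitosis. Polo and Aurora kinases then build the spindle, kinetochores attach chromosomes to it, and the spindle checkpoint restrains Cdc20 and the anaphase-promoting complex until attachment is complete. Most of these genes are transcribed late in the cycle, through promoters with a cell cycle homology region (CHR) and CCAAT boxes, and their RNA level in a population follows how many cells are in G2 and mitosis. In bulk RNA, a larger share of such cells and more of these RNAs per cell cannot be told apart.

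After Klf4 siRNA, 20 of the 44 mitotic genes rose, each by a small amount, and the cyclins A2 and B1, the motor Kif11, the spindle protein Hmmr and the kinetochore subunit Nuf2 were among them. These 20 (45.5%) passed the threshold as higher (edgeR quasi-likelihood test with batch as a term, Benjamini-Hochberg adjusted p under 0.05), against 4.88% of all 16333 genes tested. As lower, 0 passed with edgeR, against 6.81% of all genes; 1 was lower at an unadjusted p under 0.05, and 0 passed with DESeq2. Log2 fold changes were positive for 43 of the 44, against 50% of all genes, and their median was 0.10 against 4.3e-05 over all genes. The changes that passed ran from 0.099 for Ect2 to 0.18 for Ccnb1, or rises of 7.10% to 13.6%. Since the members varied together between libraries, as described further on, the 20 calls do not count as independent. The members were also chosen with earlier results of these data known, so these shares are a description and not a test of the list.

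**Figure D1:**
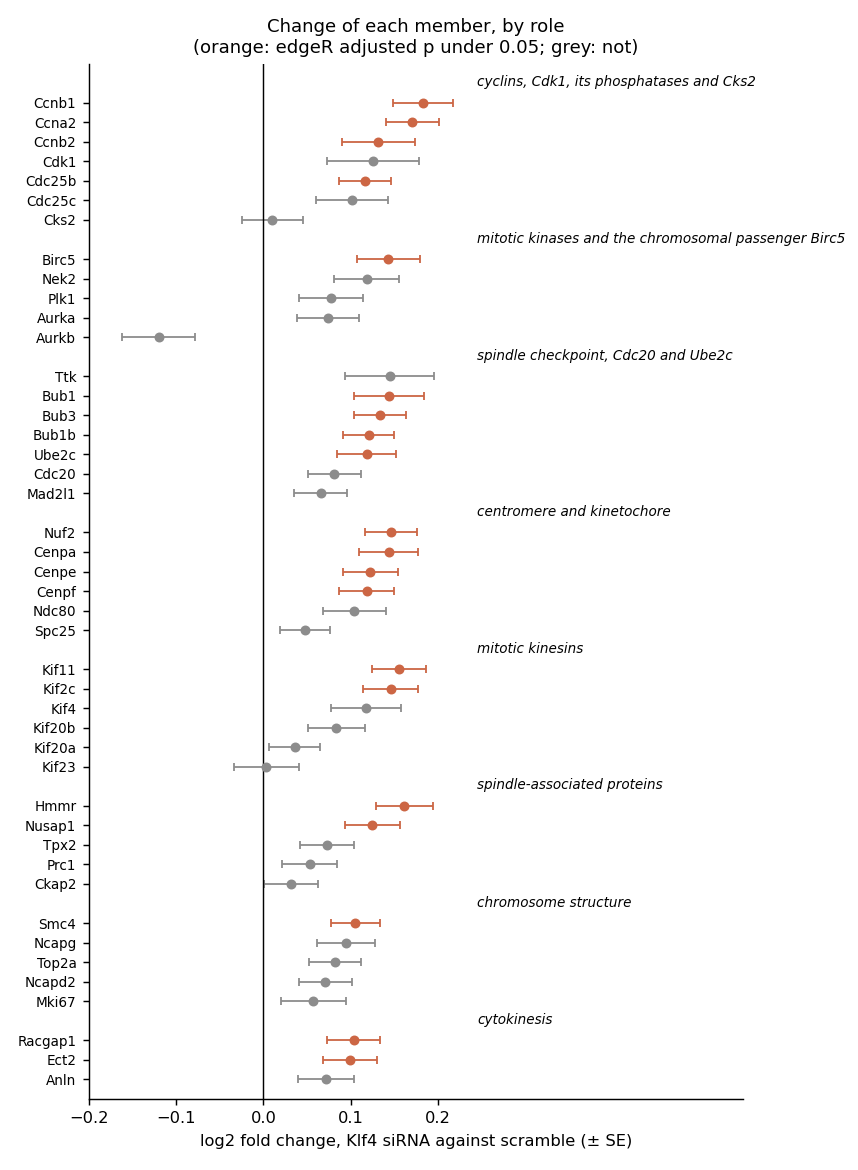
Log2 fold change of each of the 44 members (x axis; bars, standard error from edgeR) after Klf4 siRNA, grouped by role on the y axis, with orange points for the 20 past an adjusted p of 0.05. The points lie between 0.0035 and 0.18, apart from Aurkb at -0.12.

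The promoters of these genes are shown because 43 of the 44 log2 fold changes had the same sign and because the members share sequence words that the list did not use. RefSeq windows of 250 bases before to 50 bases after a transcription start (GRCm38.p6) were found for 38 members, in 41 windows. A CHR word, TTTGAA or TTCGAA on either strand, lay in 33 windows (80.5%), against 19.2% of all 32851 windows of the same length. CCAAT on either strand lay in 33 windows (80.5%) against 37.4%, and both kinds of word in 29 (70.7%) against 7.52%; these counts take each word alone, and matches may overlap. GGGNGTGG, a word of the kind that KLF factors bind, lay in 9 windows (22.0%) against 17.6%, with 3 of 20 (15%) for the members that passed as higher and 6 of 21 (28.6%) for the other members. Among the windows of the members that passed as higher, 15 of 20 (75.0%) held a CHR word, and among those of the other members 18 of 21 (85.7%). A match is a description of the letters and not a site.

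The 250 bases before the RefSeq start, less any that GENCODE places inside the gene, are printed for the 4 members with a window and the smallest adjusted p, with CHR and CCAAT words in capitals, 5′ to 3′ along the gene's strand; a word on the opposite strand reads as its reverse complement. They are Ccnb1 (chr13:100786571-100786736, minus strand), Kif11 (chr19:37376132-37376381, plus strand), Hmmr (chr11:40733438-40733687, minus strand) and Nuf2 (chr1:169531465-169531714, minus strand).
Ccnb1: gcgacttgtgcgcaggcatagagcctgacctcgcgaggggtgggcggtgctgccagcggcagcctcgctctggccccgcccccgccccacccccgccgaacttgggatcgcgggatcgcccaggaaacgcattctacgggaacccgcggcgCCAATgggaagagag
Kif11: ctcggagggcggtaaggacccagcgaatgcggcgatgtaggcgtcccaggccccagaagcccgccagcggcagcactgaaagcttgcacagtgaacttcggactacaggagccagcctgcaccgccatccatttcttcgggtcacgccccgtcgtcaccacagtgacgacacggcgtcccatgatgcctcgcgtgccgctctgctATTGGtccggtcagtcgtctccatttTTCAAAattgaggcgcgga
Hmmr: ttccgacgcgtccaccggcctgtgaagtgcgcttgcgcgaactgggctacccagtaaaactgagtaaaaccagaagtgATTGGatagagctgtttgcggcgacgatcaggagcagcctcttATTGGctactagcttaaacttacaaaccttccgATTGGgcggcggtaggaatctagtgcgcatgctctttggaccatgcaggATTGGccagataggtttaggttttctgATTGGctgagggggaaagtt
Nuf2: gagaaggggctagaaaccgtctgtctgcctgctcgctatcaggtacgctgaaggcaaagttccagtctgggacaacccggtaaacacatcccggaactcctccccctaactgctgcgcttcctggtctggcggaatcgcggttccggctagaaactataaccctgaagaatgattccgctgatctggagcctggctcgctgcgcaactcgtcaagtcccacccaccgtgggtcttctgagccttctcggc
In Ccnb1, where GENCODE starts the gene 84 bases further upstream, CCAAT began 99 and 67 bases before the RefSeq start, the latter outside the printed stretch. GGGNGTGG was matched there on the opposite strand, 164 bases before the start. Kif11 had CCAAT at 45 bases and TTTGAA at 19 bases before the start, both on the opposite strand. Hmmr had 5 CCAAT words on the opposite strand, from 172 to 20 bases before the start, and a TTTGAA that began at base 9 after it, outside the printed stretch. The Nuf2 window held none of the searched words.

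The cyclins that drive mitotic entry passed as higher, Ccnb2 only narrowly, and their kinase Cdk1 did not pass. Ccna2 encodes cyclin A2 (ENSMUSG00000027715, chromosome 3, 36564865 to 36572150, minus strand, up to 9 exons per transcript, in GENCODE M21 on GRCm38) and had 215 and 219 CPM in the batch 1 controls against 250.2, 247 and 259 CPM after Klf4 siRNA, and 214 and 208 against 225 CPM in batch 2. Every Klf4 siRNA library lay above every scramble library, in each batch and across both. Its mean went from 214 ± 4.59 to 245 ± 14.6 CPM (mean ± SD, each n = 4), and the log2 fold change was 0.17 ± 0.03 (SE; edgeR adjusted p = 0.00069). Its exons overlap those of Exosc9 on the opposite strand. Whether reads there were assigned by strand is not known, since the use of strand in counting is not given in the sources used here. Ccnb1, cyclin B1 (ENSMUSG00000041431, chromosome 13, 100778650 to 100786570, minus strand, up to 9 exons per transcript), had 106 and 108 CPM in the batch 1 controls against 117, 119 and 131 CPM after Klf4 siRNA, and 110.4 and 105 against 121 CPM in batch 2. The 2 groups did not overlap, with the highest value in Klf4 siRNA replicate 4, and the log2 fold change was 0.18 ± 0.03 (SE; edgeR adjusted p = 0.0012). For Ccnb2, cyclin B2, the levels were 35.1 and 35.0 CPM in the batch 1 controls against 39.5, 38.0 and 42.3 CPM after Klf4 siRNA, and 35.8 and 35.7 against 36.5 CPM in batch 2. In batch 2 the Klf4 siRNA library exceeded the nearer scramble library by less than 1 CPM, and the log2 fold change was 0.13 ± 0.04 (SE; edgeR adjusted p = 0.047). This call was kept in 7 of 17 alternatives and ended with the DESeq2 Wald test (adjusted p = 0.055) and with library size alone in edgeR (adjusted p = 0.076).

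Cdc25b, a phosphatase that activates Cdk1, had 126 and 122 CPM in the batch 1 controls against 138, 134 and 129.9 CPM after Klf4 siRNA, and 102 and 97.3 against 109 CPM in batch 2. Within each batch the Klf4 siRNA libraries were higher, but batch 2 lay below batch 1 and the groups overlapped across batches. The log2 fold change was 0.12 ± 0.03 (SE; edgeR adjusted p = 0.014), and exons of Spef1 overlap it on the opposite strand. Cdk1 and Cdc25c had log2 fold changes of 0.13 ± 0.05 (SE; edgeR adjusted p = 0.176) and 0.10 ± 0.04 (SE; edgeR adjusted p = 0.131), and Cks2, a small Cdk-binding subunit, 0.01 ± 0.04 (SE; edgeR adjusted p = 0.910). Of the 7 genes of this role, 4 passed as higher (57.1%, against 4.88% of all genes), with a median log2 fold change of 0.13.

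Among the mitotic kinases, the Aurora kinases A and B had changes of opposite sign, and neither passed the threshold. Birc5, or survivin, which localises Aurora B as part of the chromosomal passenger complex, had 67.5 and 67.7 CPM in the batch 1 controls against 73.1, 71.7 and 80.7 CPM after Klf4 siRNA, and 67.3 and 70.1 against 74.9 CPM in batch 2. The treatment groups did not overlap, and the log2 fold change was 0.14 ± 0.04 (SE; edgeR adjusted p = 0.012). It was the single gene of the 5 in this role to pass (20%, against 4.88% of all genes called higher). Nek2, a kinase of centrosome separation, had 172 and 167 CPM in the batch 1 controls against 184, 186 and 202 CPM after Klf4 siRNA, and 184 and 176 against 183 CPM in batch 2. The Klf4 siRNA libraries were higher in batch 1 and lay between the scramble libraries in batch 2 (log2 fold change 0.12 ± 0.04 SE, edgeR adjusted p = 0.0501).

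Aurkb, the kinase of the passenger complex, had the single negative log2 fold change of the 44, and is described because of that value. It had 34.5 and 30.4 CPM in the batch 1 controls against 29.7, 29.9 and 30.4 CPM after Klf4 siRNA, and 31.5 and 31.0 against 28.6 CPM in batch 2. Every Klf4 siRNA library lay below every scramble library, although Klf4 siRNA replicate 4 and scramble replicate 2 differed by less than 1 CPM (log2 fold change -0.12 ± 0.04 SE, edgeR adjusted p = 0.072). The edgeR adjusted p was 0.466 without scramble replicate 1, the highest of the controls, and 0.031 without scramble replicate 2, when it passed as lower. Plk1 and Aurka, kinases of spindle assembly, had log2 fold changes of 0.078 ± 0.04 (SE; edgeR adjusted p = 0.201) and 0.074 ± 0.04 (SE; edgeR adjusted p = 0.210).

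Of the 7 genes of the spindle checkpoint and of its target, 4 passed as higher (57.1%, against 4.88% of all genes), and all 7 were higher in each Klf4 siRNA library of batch 1 than in both controls, an order found in 18.4% of all genes. Bub3, a checkpoint adaptor, had 141 and 143 CPM in the batch 1 controls against 158, 155 and 166 CPM after Klf4 siRNA, and 150.4 and 146 against 156 CPM in batch 2. The groups did not overlap, and the log2 fold change was 0.13 ± 0.03 (SE; edgeR adjusted p = 0.0054). Bub1b, the checkpoint inhibitor BubR1, had 113 and 114 CPM in the batch 1 controls against 122, 122 and 129 CPM after Klf4 siRNA, and 108 and 105 against 114 CPM in batch 2, and its log2 fold change was 0.12 ± 0.03 (SE; edgeR adjusted p = 0.0092). Its groups also did not overlap, although the Klf4 siRNA library of batch 2 exceeded the highest control by less than 1 CPM.

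Bub1, the kinase that recruits other checkpoint proteins, had 67.7 and 72.4 CPM in the batch 1 controls against 77.5, 78.2 and 83.5 CPM after Klf4 siRNA, and 71.3 and 65.0 against 71.3 CPM in batch 2. In batch 2 its Klf4 siRNA library equalled the higher control at this precision, the groups overlapped across batches, and the log2 fold change was 0.14 ± 0.04 (SE; edgeR adjusted p = 0.024). Ube2c, the ubiquitin-conjugating enzyme of the anaphase-promoting complex, had 141 and 144 CPM in the batch 1 controls against 159, 157 and 168 CPM after Klf4 siRNA, and 147 and 147 against 148 CPM in batch 2 (log2 fold change 0.12 ± 0.03 SE, edgeR adjusted p = 0.026). Its groups did not overlap, and exons of Tnnc2 overlap it on the opposite strand. Cdc20, the activator that the checkpoint restrains, did not pass. It had 163 and 163 CPM in the batch 1 controls against 171, 170.4 and 186 CPM after Klf4 siRNA, and 159.8 and 157 against 163 CPM in batch 2, with a log2 fold change of 0.081 ± 0.03 (SE; edgeR adjusted p = 0.098). The checkpoint genes Ttk and Mad2l1 had log2 fold changes of 0.14 ± 0.05 (SE; edgeR adjusted p = 0.074) and 0.065 ± 0.03 (SE; edgeR adjusted p = 0.195).

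At the centromere and kinetochore, 4 of 6 genes passed, all higher (66.7%, against 4.88% of all genes). Nuf2, a subunit of the Ndc80 complex that binds microtubules (ENSMUSG00000026683, chromosome 1, 169497934 to 169531464, minus strand, up to 15 exons per transcript), had 104 and 104 CPM in the batch 1 controls against 116, 115 and 121 CPM after Klf4 siRNA, and 105 and 106 against 113 CPM in batch 2. The controls spanned under 3 CPM and every Klf4 siRNA library lay above them, with a log2 fold change of 0.15 ± 0.03 (SE; edgeR adjusted p = 0.0023). Cenpa, the histone H3 variant that marks centromeres, had 83.1 and 87.9 CPM in the batch 1 controls against 95.0, 90.0 and 99.8 CPM after Klf4 siRNA, and 83.4 and 82.5 against 90.9 CPM in batch 2. Its log2 fold change was 0.14 ± 0.03 (SE; edgeR adjusted p = 0.0082), with no overlap of the groups.

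Cenpe, a kinetochore motor of the kinesin family, had 179.5 and 173 CPM in the batch 1 controls against 196, 186 and 203 CPM after Klf4 siRNA, and 179 and 169.6 against 184 CPM in batch 2 (log2 fold change 0.12 ± 0.03 SE, edgeR adjusted p = 0.014). Here too the groups did not overlap. Cenpf, a large kinetochore protein of G2 cells, had 547 and 535 CPM in the batch 1 controls against 596, 570.1 and 608 CPM after Klf4 siRNA, and 521 and 480.2 against 536 CPM in batch 2. Within each batch Klf4 siRNA libraries were higher, and across batches they overlapped the controls (log2 fold change 0.12 ± 0.03 SE, edgeR adjusted p = 0.017). The other Ndc80 complex subunits Ndc80 and Spc25 had log2 fold changes of 0.10 ± 0.04 (SE; edgeR adjusted p = 0.070) and 0.048 ± 0.03 (SE; edgeR adjusted p = 0.338).

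Of the 6 mitotic kinesins, 2 passed as higher (33.3%, against 4.88% of all genes). Kif11, the motor that separates the spindle poles (ENSMUSG00000012443, chromosome 19, 37376403 to 37421859, plus strand, up to 22 exons per transcript), had 154 and 157 CPM in the batch 1 controls against 178, 173 and 181 CPM after Klf4 siRNA, and 148 and 138 against 152 CPM in batch 2. The rise was clear of the controls within each batch, and the log2 fold change was 0.16 ± 0.03 (SE; edgeR adjusted p = 0.0019). Kif2c, which depolymerises microtubules at centromeres, had 59.9 and 62.3 CPM in the batch 1 controls against 69.2, 69.1 and 70.2 CPM after Klf4 siRNA, and 55.2 and 54.2 against 57.6 CPM in batch 2 (log2 fold change 0.15 ± 0.03 SE, edgeR adjusted p = 0.0040). Like Kif11, it was higher within each batch and overlapped the controls across batches. Kif20a, a cytokinesis motor and the most abundant of this role by CPM, had 219 and 212 CPM in the batch 1 controls against 224, 219.7 and 232 CPM after Klf4 siRNA, and 207 and 201 against 201 CPM in batch 2. In batch 2 its Klf4 siRNA library lay between the controls, and the log2 fold change was 0.036 ± 0.03 (SE; edgeR adjusted p = 0.516). Its exons overlap those of Cdc23 on the opposite strand. Kif4, Kif20b and Kif23 had log2 fold changes of 0.12, 0.083 and 0.0035 (edgeR adjusted p = 0.069, 0.115 and 0.975).

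Among 5 spindle-associated proteins, Hmmr and Nusap1 passed as higher (40%, against 4.88% of all genes). Hmmr, a spindle protein also known as a hyaluronan receptor (ENSMUSG00000020330, chromosome 11, 40701395 to 40733422, minus strand, up to 18 exons per transcript), had 65.3 and 64.2 CPM in the batch 1 controls against 71.8, 72.4 and 77.0 CPM after Klf4 siRNA, and 63.8 and 62.4 against 68.5 CPM in batch 2. Every Klf4 siRNA library exceeded every control, and its mean went from 64.0 ± 1.2 to 72.4 ± 3.52 CPM (mean ± SD, each n = 4), a log2 fold change of 0.16 ± 0.03 (SE; edgeR adjusted p = 0.0020). Nusap1, which bundles spindle microtubules, had 94.4 and 95.1 CPM in the batch 1 controls against 105, 104 and 109 CPM after Klf4 siRNA, and 88.8 and 86.6 against 90.8 CPM in batch 2 (log2 fold change 0.12 ± 0.03 SE, edgeR adjusted p = 0.012). It was higher within each batch and not across batches, and exons of Oip5 overlap it on the opposite strand. Tpx2, an activator of Aurora A, had 209 and 209 CPM in the batch 1 controls against 224, 224 and 234 CPM after Klf4 siRNA, and 204 and 205 against 202 CPM in batch 2. In batch 2 its Klf4 siRNA library was below both controls, and its log2 fold change was 0.073 ± 0.03 (SE; edgeR adjusted p = 0.146). Prc1 and Ckap2 had log2 fold changes of 0.053 and 0.032 (edgeR adjusted p = 0.341 and 0.602).

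The proliferation markers Mki67 and Top2a did not pass the threshold. Mki67, which encodes the Ki-67 antigen that coats mitotic chromosomes, had 903 and 872 CPM in the batch 1 controls against 942, 862 and 969.7 CPM after Klf4 siRNA, and 899 and 825 against 895 CPM in batch 2. The groups overlapped within both batches, and the log2 fold change was 0.057 ± 0.04 (SE; edgeR adjusted p = 0.396). Top2a, the topoisomerase that untangles sister chromatids, had a log2 fold change of 0.082 ± 0.03 (SE; edgeR adjusted p = 0.089). Smc4, a core subunit of condensin, was the single gene of the 5 in this role to pass (20%, against 4.88% of all genes called higher). It had 331 and 324 CPM in the batch 1 controls against 356, 355 and 364 CPM after Klf4 siRNA, and 326 and 316 against 334 CPM in batch 2, and its groups did not overlap (log2 fold change 0.11 ± 0.03 SE, edgeR adjusted p = 0.017). The condensin I subunits Ncapg and Ncapd2 had log2 fold changes of 0.094 ± 0.03 (SE; edgeR adjusted p = 0.076) and 0.071 ± 0.03 (SE; edgeR adjusted p = 0.160).

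Of 3 cytokinesis genes, 2 passed as higher (66.7%, against 4.88% of all genes), and both calls ended without scramble replicate 1 or 2 or Klf4 siRNA replicate 1 or 4. Racgap1, a GTPase-activating protein of the central spindle, had 239 and 236 CPM in the batch 1 controls against 256, 254 and 274 CPM after Klf4 siRNA, and 248 and 249 against 256 CPM in batch 2, a log2 fold change of 0.10 ± 0.03 (SE; edgeR adjusted p = 0.033). Ect2, the exchange factor that activates RhoA at the cleavage site, had 112 and 115 CPM in the batch 1 controls against 124, 124 and 126 CPM after Klf4 siRNA, and 116 and 109.5 against 116 CPM in batch 2 (log2 fold change 0.10 ± 0.03 SE, edgeR adjusted p = 0.042). Racgap1 had no overlap of the groups, whereas the Klf4 siRNA library of batch 2 lay between its controls for Ect2. Anln, anillin, had a log2 fold change of 0.071 ± 0.03 (SE; edgeR adjusted p = 0.181).

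**Figure D2:**
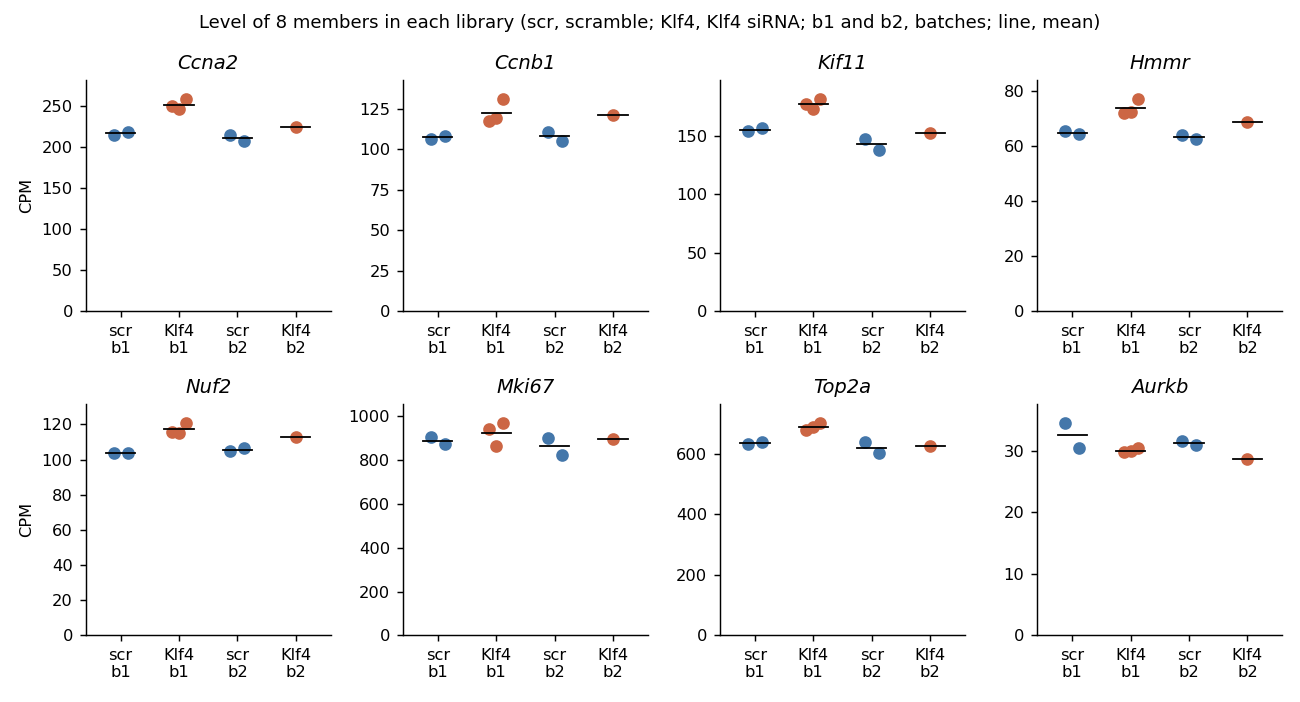
Level of 8 members in each library, in CPM from 0 on the y axis, split on the x axis by treatment and batch; each point is a library and each line the mean of its group. Ccna2, Ccnb1, Kif11, Hmmr and Nuf2 are higher after Klf4 siRNA in both batches, Mki67 and Top2a overlap with the controls in batch 2, and Aurkb is lower.

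The levels of the genes themselves were compared per length, as TPM, a share of transcripts computed from the counts over the union of annotated exons. Mean TPM over the 8 libraries ran from 15.9 for Ttk to 297 for Cdc20. The 5 highest were Cdc20, Mki67 (296), Ncapd2 (274), Cks2 (259) and Top2a (240.3), and none of these 5 passed the treatment threshold. Cyclin A2 was at 187 TPM and cyclin B1 at 90.6 TPM.

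The median member was above its controls in each of the 4 Klf4 siRNA libraries, by an amount that differed between them. The summed level of the 44 members was 7224, 7159, 7128 and 6850 CPM in scramble replicates 1 to 4 and 7771, 7611, 7218 and 8087 CPM in Klf4 siRNA replicates 1 to 4. Measured against the mean of the controls of the same batch, the median member was higher by 0.12, 0.11 and 0.19 on the log2 scale in Klf4 siRNA replicates 1, 2 and 4 and by 0.042 in replicate 3. The number of members above the control mean was 42, 41, 35 and 43 in Klf4 siRNA replicates 1 to 4 and 19, 25, 34 and 10 in scramble replicates 1 to 4. Klf4 siRNA replicate 3, with 35 members above the mean and a median of 0.042, was thus close to scramble replicate 3, a control of its own batch with 34 and 0.021. Replicate 4, the highest, had more Klf4 RNA left (18.8 CPM) than replicates 1 and 2 of its batch (12.5 and 11.5 CPM). Over all tested genes, the same median lay between -0.0021 and 0.0024 in these 4 libraries.

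**Figure D3:**
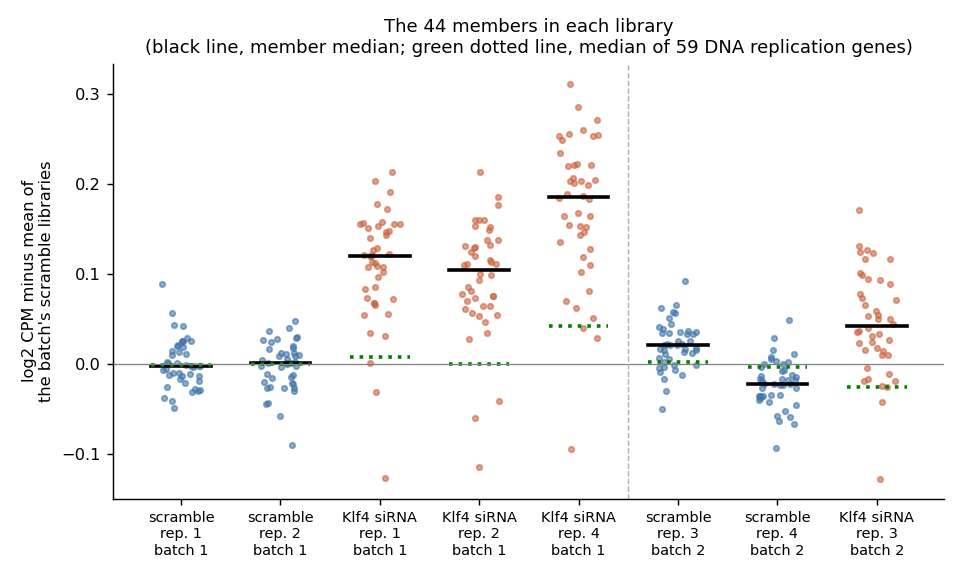
Each of the 44 members in each library (x axis), as log2 CPM minus the mean of the scramble libraries of its batch (y axis), with the member median in black and the median of 59 DNA replication genes in green. The member medians of the Klf4 siRNA libraries lie between 0.042 and 0.19, and those of the replication genes between -0.025 and 0.042.

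Within batch 1, 37 of the 44 members (84.1%) had every Klf4 siRNA library above both controls, against 18.4% of all genes, and 1 member, Aurkb, had every one below them, against 19.2%. Within batch 2, where a single Klf4 siRNA library was compared with 2 controls, 27 members (61.4%) were above both, against 35.1% of all genes, and 6 were below both (Cks2, Plk1, Aurkb, Tpx2, Prc1 and Ckap2), against 36.6%. Across both batches, 15 members (34.1%) had no overlap of the treatments with Klf4 siRNA higher, against 4.97%. The median change was 0.13 within batch 1 and 0.042 within batch 2. The signed log2 change was lower in batch 2 than in batch 1 for 41 of the 44 members. The interaction test, which has a single Klf4 siRNA library in batch 2, called 0% of all genes and so does not show that the members changed alike in both batches (edgeR; smallest adjusted p over all genes 0.712; 6 of 44 members and 540 of 16333 genes at an unadjusted p under 0.05). Those 6 were Ccna2, Plk1, Nek2, Ube2c, Kif4 and Tpx2, each with the larger change in batch 1.

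After batch and treatment were taken out, the members still varied together. Over 946 pairs of members, the correlation of residual log2 CPM across the 8 libraries had a median of 0.59, with quartiles of 0.31 and 0.79, and 87.7% of pairs were positive. The mean correlation was 0.49 among members and 0.0012 among all tested genes. The points of all pairs share the same 8 libraries and 5 residual degrees of freedom. Residuals were positive for 42 members in scramble replicate 3 and 40 in Klf4 siRNA replicate 4, and for 3 in Klf4 siRNA replicate 3.

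The number of calls depended on single libraries. Without scramble replicate 1, 6 members passed as higher (13.6%, against 1.99% of all genes in that fit), namely Ccna2, Ccnb1, Cdc25b, Nuf2, Kif11 and Hmmr. Without scramble replicate 2 there were 8 (18.2% against 2.21%), and Cdc25b was not among them whereas Bub3, Cenpa and Kif2c were. Without Klf4 siRNA replicate 3, and so with no Klf4 siRNA library of batch 2, 21 passed (47.7% against 3.08%), with Cdc25b, Birc5 and Cenpf lost. Leaving out Klf4 siRNA replicate 1 lost Ccnb2, Ube2c, Ect2 and Racgap1, leaving out Klf4 siRNA replicate 4 lost Ccnb2, Ect2 and Racgap1, leaving out scramble replicate 3 lost Ccnb2, and leaving out Klf4 siRNA replicate 2 or scramble replicate 4 lost Ect2. With no batch term, 3 members (6.82%, against 0.857% of all genes) passed, Ccnb1, Nuf2 and Hmmr, which passed under all 17 alternatives. Scaling by library size alone ended the calls of Ccnb2, Cdc25b, Bub1 and Ect2, and the DESeq2 Wald test that of Ccnb2. Ccna2 passed under 16, with an adjusted p of 0.052 without the batch term.

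**Figure D4:**
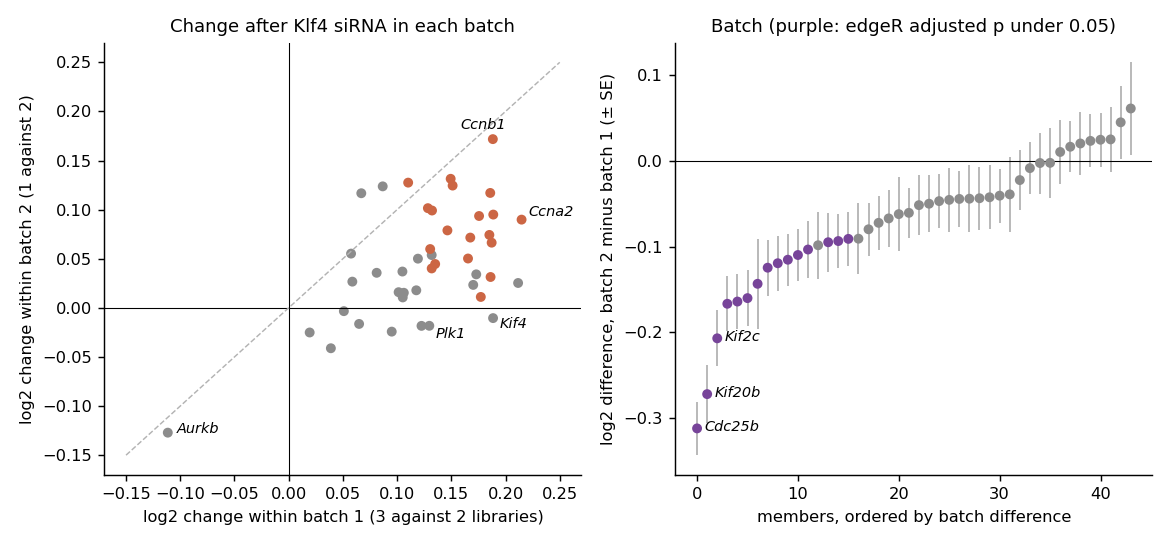
Left, log2 change of each member within batch 1 (x axis) and batch 2 (y axis), with orange points for members past the treatment threshold; right, log2 difference between batches ± SE, in order of size, with purple points past an adjusted p of 0.05. On the left 41 of 44 points lie below the dashed line of equal change, and the called batch differences on the right are all negative.

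The batch differences that passed all had the same sign. In the same fit, 15 of the 44 (34.1%) passed as lower in batch 2, against 15.9% of all genes, and 0 as higher, against 16.8% (edgeR; 0 higher at an unadjusted p under 0.05, and 0 with DESeq2). The median batch difference was -0.056 on the log2 scale. The 3 largest were those of Cdc25b, Kif20b and Kif2c, with log2 differences of -0.31, -0.27 and -0.21 (SE 0.03 each; edgeR adjusted p = 1.1e-07, 2.6e-06 and 4.9e-05). Kif20b, a motor of cytokinesis, had 88.2 and 81.5 CPM in the batch 1 controls against 89.9, 89.4 and 87.2 CPM after Klf4 siRNA, and 70.9 and 67.6 against 75.1 CPM in batch 2. The 3 libraries of batch 2 were thus below all 5 of batch 1. The labels do not say what set the batches apart. This count rested on Klf4 siRNA replicate 3: without it 5 members passed as lower (11.4%, against 10.4% of all genes in that fit), a share near the background. Without Klf4 siRNA replicate 4, 16 passed as lower (36.4% against 18.2%) and 1 as higher (2.27% against 19%). With library size alone in place of TMM, 21 passed as lower (47.7%), and the split of all genes moved to 20.3% lower and 12.9% higher.

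Other genes of G2 and mitosis were examined next, from lists outside the 44, with 19 transcription factors described further on counted among them. Of 134 such genes, all tested, 27 (20.1%) passed as higher, against 4.88% of all genes, and 10 (7.46%) as lower, near the 6.81% of all genes, with a median log2 fold change of 0.053. The transcription factors held 2 of the 27 higher calls and 5 of the 10 lower calls, and their own median was -0.0062. Those 27 became 9 without scramble replicate 1, 11 without scramble replicate 2 and 17 without Klf4 siRNA replicate 1. The share of all genes called higher also fell in these fits, to 1.99%, 2.21% and 3.71%. The 10 became 4, 3 and 3 without scramble replicate 1, scramble replicate 2 and Klf4 siRNA replicate 3. Over all genes, the 1112 lower calls became 604, 643 and 722 there. Among 24 regulators of entry, exit and cytokinesis, 9 (37.5%) passed as higher and 2 (8.33%) as lower. Cep55, which acts in the final cut between daughter cells, rose from 28.2 ± 2.14 to 36.1 ± 2.73 CPM (mean ± SD, each n = 4), with a log2 fold change of 0.30 ± 0.04 (SE; edgeR adjusted p = 1.5e-05). Wee1, the kinase that holds Cdk1 inactive, had a log2 fold change of 0.31 ± 0.04 (SE; edgeR adjusted p = 6.8e-05), and Mastl, the Greatwall kinase that protects Cdk1 substrates from dephosphorylation, 0.24 ± 0.05 (SE; edgeR adjusted p = 0.0021). A gene that restrains entry and one that promotes it thus both rose.

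Of 26 other spindle and motor genes, 7 (26.9%) passed as higher and 2 (7.69%) as lower, where all genes had 4.88% higher and 6.81% lower, so that the lower share was near the background. Haus6, a subunit of the augmin complex, rose from 48.5 ± 1.92 to 62.7 ± 4.21 CPM (mean ± SD, each n = 4; log2 fold change 0.34 ± 0.04 SE, edgeR adjusted p = 4.2e-06). Psrc1 and Haus2 rose by 0.25 and 0.16 (edgeR adjusted p = 0.0030 and 0.0058). Among 30 other kinetochore and checkpoint genes 4 (13.3%) passed, all higher, among them Pmf1, Zwint and Cenpn (0.20, 0.15 and 0.15; edgeR adjusted p = 0.00049, 0.0017 and 0.034). Of 13 cohesin, separase and shugoshin genes, 3 (23.1%) passed as higher: Cdca5, Wapl and Espl1 (0.16, 0.094 and 0.11; edgeR adjusted p = 0.022, 0.040 and 0.042). Of 5 other condensin genes, Smc2, the partner of Smc4, passed as higher (0.14 ± 0.03 SE, edgeR adjusted p = 0.0047). Leaving out a single library ended some of these calls: those of Cdca5, Wapl, Espl1 and Cenpn without scramble replicate 1 or 2, that of Haus2 without scramble replicate 1 or Klf4 siRNA replicate 3, and that of Smc2 without scramble replicate 2. The call of Cdca5 also ended without Klf4 siRNA replicate 3, and that of Cenpn without Klf4 siRNA replicate 1 or 4. The calls of Wapl and Espl1 also ended without scramble replicate 4 or Klf4 siRNA replicate 1 or 3, and without Klf4 siRNA replicate 2 (Wapl) or 4 (Espl1).

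The anaphase-promoting complex and its regulators, which destroy cyclin B and securin, had 1 gene of 17 higher and 1 lower (5.88% each, near the 4.88% and 6.81% of all genes), with a median of 0.019. Fzr1, the activator that follows Cdc20, rose (0.12 ± 0.03 SE, edgeR adjusted p = 0.0093), a call that ended without scramble replicate 1 or 2. The subunit Cdc23 fell from 48.7 ± 5.21 to 39.6 ± 2.27 CPM (mean ± SD, each n = 4), with a log2 fold change of -0.34 ± 0.05 (SE; edgeR adjusted p = 0.00023), and its exons overlap those of Kif20a.

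Of 19 transcription factors that act on G2/M or E2F target genes, 2 (10.5%) passed as higher and 5 (26.3%) as lower, against 4.88% and 6.81% of all genes, with a median of -0.0062. These 19 are part of the 134 genes above. E2f8, a repressor of the E2F family, fell from 62.1 ± 1.88 to 53.9 ± 0.709 CPM (mean ± SD, each n = 4), with a log2 fold change of -0.19 ± 0.03 (SE; edgeR adjusted p = 0.00017). Lin52, a subunit of the MuvB complex that reads CHR elements, and E2f3 had log2 fold changes of -0.21 ± 0.05 (SE; edgeR adjusted p = 0.0078) and -0.14 ± 0.03 (SE; edgeR adjusted p = 0.013). The calls of both ended without Klf4 siRNA replicate 3, and that of E2f3 also without scramble replicate 2. The families were mixed in direction, as shown by further genes named outside the rule after their values were seen. Of the other MuvB subunits, Lin9, Lin37, Lin54 and Rbbp4 had log2 fold changes of 0.075, 0.023, 0.020 and -0.0054 (edgeR adjusted p = 0.125, 0.821, 0.756 and 0.942). E2f1 fell and E2f2 rose (-0.11 and 0.11; edgeR adjusted p = 0.024 and 0.028), and of the subunits of NF-Y, which binds CCAAT, Nfya fell and Nfyc rose (-0.19 and 0.12; edgeR adjusted p = 0.015 and 0.033). These 4 calls all ended without scramble replicate 1 or 2, and each also without at least 1 other library. Foxm1 and Mybl2, the activators of G2/M genes that work with MuvB, are named for that role and not for their values. They had log2 fold changes of -0.0045 ± 0.03 (SE; edgeR adjusted p = 0.956) and -0.039 ± 0.04 (SE; edgeR adjusted p = 0.654).

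DNA replication and S-phase genes were kept as a list of their own. Of 59, all tested, 3 (5.08%) passed as higher and 5 (8.47%) as lower, near the 4.88% and 6.81% of all genes, and log2 fold changes were positive for 29 and negative for 30, with a median of -0.00018. Ccne2, cyclin E2, rose from 60.5 ± 2.23 to 77.1 ± 5.24 CPM (mean ± SD, each n = 4), with a log2 fold change of 0.32 ± 0.04 (SE; edgeR adjusted p = 3.4e-06). Rpa3, a subunit of the single-stranded DNA binding complex, fell from 64.8 ± 4.99 to 53.8 ± 5.09 CPM (mean ± SD, each n = 4; log2 fold change -0.32 ± 0.04 SE, edgeR adjusted p = 6.3e-06), and Tk1, thymidine kinase, rose (0.21 ± 0.04 SE, edgeR adjusted p = 0.00053). The 5 lower calls became 3, 2, 3 and 1 without scramble replicate 1, scramble replicate 2, Klf4 siRNA replicate 1 and Klf4 siRNA replicate 3. Over all genes, the 1112 lower calls became 604, 643, 865 and 722 in these fits. The difference between this list and the mitotic genes was described by these counts and not tested.

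**Figure D5:**
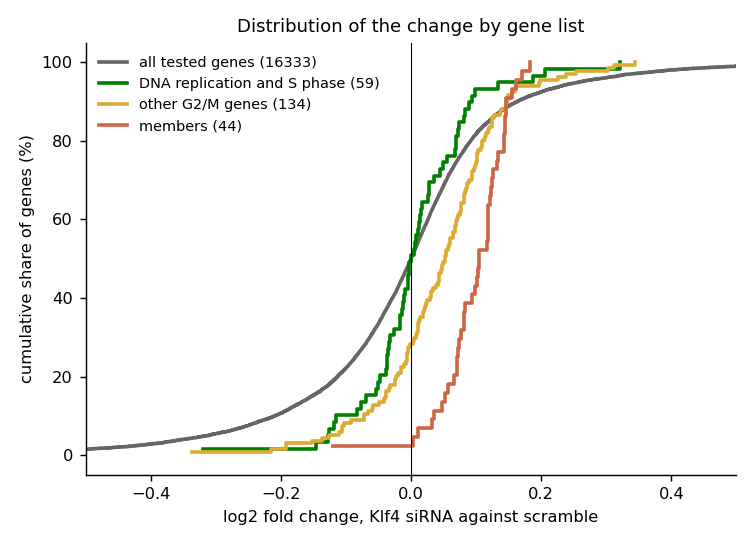
Cumulative share of genes (y axis, in %) by log2 fold change after Klf4 siRNA (x axis) for the 44 members, 134 other G2/M genes, 59 DNA replication genes and all 16333 tested genes. The 134 include the 19 transcription factors. The median is 0.10 for the members, 0.053 for the other G2/M genes, -0.00018 for the replication genes and 4.3e-05 for all genes.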

How the data were processed

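Poly(A) RNA-seq of 8 alphaTC6 libraries was used. The authors deposited whole-number counts per gene, not normalized, from reads trimmed with cutadapt per the name of the table. STAR, featureCounts, FastQC, DESeq2 and the build mm10 are named in the submitters' processing notes, with no role or version. All 55536 identifiers and symbols matched GENCODE M21 (GRCm38) for positions and exon lengths. The labels' extraction text speaks of islets, although every sample is labelled alphaTC6. Use of strand in counting is not given in the sources used here: exons of 12 members overlap an exon on the opposite strand, and exons of Ncapd2 and Top2a one on the same strand.

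Genes were kept with filterByExpr on the treatments (16333) and scaled by TMM. The design text names edgeR with batch correction; edgeR 4.0.16 in R 4.3.3 was fitted with batch and treatment on all 8 libraries (robust quasi-likelihood, 5 residual degrees of freedom), with two-sided p-values adjusted by Benjamini-Hochberg over all tested genes at 0.05. A standard error is the size of the log2 fold change divided by the root of its F statistic. Changes within a batch are differences of mean log2 CPM (prior count 2). The interaction had a fit of its own and DESeq2 1.42.0 was among the alternatives. In simulated counts the fit recovered large changes nearly always and small changes, still above those of the members, less often, and its share of false calls lay above the nominal threshold.

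The members and lists were chosen with earlier results of these data known. Values in every library are given for members past the threshold and for the most abundant member of each role by CPM, and from each other list at most 3 genes past the threshold with the smallest adjusted p; genes outside this rule are said to be so or given by fold change alone. Aurkb, and the genes with the largest batch differences, were named after their values were seen.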

Additional observations from a re-analysis of the deposited data

Results flagged for a closer look

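The level of each of the 44 members was examined in both treatments for a library far from the other 3 of its group, by its gap to the nearest other library divided by the whole range. Of 88 groups, 10 exceeded the share that chance passes in about 1 of 20 groups, where chance gives 4.4. The groups span both batches, and the members vary together, so these cases are not independent.

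Klf4 siRNA replicate 3, the library of batch 2, was lowest of its group for Ttk (gap 0.969 of the range; 21.9 CPM against 26.0 to 26.1), Kif2c (0.917; 57.6 against 69.1 to 70.2) and Ncapg (0.845; 67.0 against 73.1 to 74.2). Kif2c, Ttk and Ncapg were all lower in batch 2 in the fit. Klf4 siRNA replicate 4 was highest for Nek2 (0.866; 202 against 183 to 186 CPM) and Racgap1 (0.872; 274 against 254 to 256).

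Among scramble libraries, replicate 2 was lowest for Cks2 (0.854; 51.1 against 54.3 to 54.9 CPM) and highest for Cenpa (0.846; 87.9 against 82.6 to 83.4). Replicate 4 was highest for Birc5 (0.858; 70.1 against 67.3 to 67.7) and lowest for Top2a (0.856; 601 against 633 to 638). Replicate 3 was highest for Cdc25c (0.901; 34.4 against 32.8 to 33.0). What set these libraries apart was not tested.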

How the results depend on the processing

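The log2 fold changes of the 44 members and the other named genes were recomputed under 17 alternatives, those for genes and lists outside the members being chosen after seeing the data. Of 1292 values, 1087 kept their side of the threshold, 175 calls were lost, 30 were gained, and 0 called values changed sign. Positive changes numbered 41 to 43 members throughout. The count of members higher after Klf4 siRNA (20) was 3 with no batch term (6.82%, against 0.857% of all genes). It was 12 with Klf4 siRNA replicate 4 placed in batch 2 (27.3% against 3.65%). When a library was left out it was 6 to 24 (13.6% to 54.5%, against 1.99% to 5.35%), and members lower numbered 0 to 1. Members higher in batch 2 then numbered 0 to 1, where 12.8% to 19% of all genes were called. Members lower in batch 2 numbered 5 to 18, where 10.4% to 18.2% of all genes were called. With Klf4 siRNA replicate 4 placed in batch 2, 1 member was higher (2.27%, against 8.72% of all genes) and 2 were lower (4.55% against 8.92%) in that batch. Over all genes, 1909 were called, against 409 with no batch term, 1232 in batch 1 alone, and 934 to 2021 when a library was left out. Other G2/M genes higher and lower (27 and 10) were 5 and 2 with no batch term and 9 to 28 and 3 to 11 when a library was left out, and 3 were lower in batch 1 alone. Replication genes lower (5) were 0 with no batch term, 2 in batch 1 alone and 1 to 6 when a library was left out, and those higher (3) were 2 to 3 then. The interaction called 0 members when any library but Klf4 siRNA replicate 3 was left out, and without that library it could not be fitted; its alternatives were chosen after seeing the data. The cause of these moves was not tested, beyond the smaller number of libraries.

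Replicate numbers are shared by the treatments. Replicates 1 to 4 gave correlations of 0.492, 0.416, 0.720 and -0.34 between same-numbered libraries (deviations from the treatment mean), and of -0.00053, -0.040, -0.30 and 0.12 with batch removed. Those numbered 4 belong to different batches, and the numbers were not taken as pairs; 2 scramble and 3 Klf4 siRNA libraries of 4 correlated best with their own number. A replicate block in place of batch gave 6 members higher (13.6%, against 3.29% of all genes), 17 other G2/M genes higher and 6 lower, and 1220 genes called. A replicate block together with batch gave 27 members higher (61.4%, against 8.85% of all genes) and 1 lower (Aurkb). It gave 24 members lower in batch 2 (54.5% against 7.26%), 6 replication genes higher and 9 lower, and 3120 genes called.

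At this spread, changes of the size of those of Cks2, Kif23 and Ckap2 (under 0.04 on the log2 scale) were within about 1 standard error of 0 and could not be told from it.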
